A study of Mus musculus with 6 samples.

Results

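NRF2, the transcription factor encoded by Nfe2l2, its inhibitor Keap1 and 8 genes known as targets of NRF2 or of the antioxidant response (Gclm, Gclc, Nqo1, Hmox1, Txnrd1, Srxn1, Slc7a11 and G6pdx) were examined in HL-1 cells. These 10 genes were taken by name and not by a threshold on their values, though earlier results of these data were known. Of them, 9 are among the 21269 genes of the expression table. Slc7a11, the cystine carrier, was not analysed here. HL-1 is a line derived from mouse atrial cardiomyocytes, grown in Claycomb medium with norepinephrine. The cells were seeded 24 hours before transfection with RNAiMAX and 50 nM of a locked nucleic acid (LNA) gapmer, a short antisense strand that directs the cleavage of the RNA it pairs with, and were collected 48 hours after it. LNA Control (3 libraries) and LNA Malat1 (3 libraries) differed in the gapmer, while line, medium, transfection reagent and time were shared. The comparison asks how the RNAs of HL-1 cells differ when the nuclear long noncoding RNA Malat1 is reduced. The labels do not say that the libraries came from separate cultures, and all come from a single cell line, so p-values measure only the spread between these libraries, which may be technical.

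NRF2 is held at a low level in unstressed cells because KEAP1 carries it to a CUL3 ubiquitin ligase for degradation. Oxidants and electrophiles modify KEAP1, and NRF2 then enters the nucleus, pairs with a small MAF protein and binds antioxidant response elements of genes for glutathione synthesis, thioredoxin reduction, quinone reduction and NADPH supply. In heart muscle, which respires constantly, this system is known for limiting oxidative damage. Since NRF2 is controlled mainly through the stability of its protein, the level of its RNA does not give its activity.

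The values are read counts per gene that the authors divided by a factor for each library and rounded, here called normalized counts. Their total per library was 4831007 to 4921406 in LNA Control and 4758777 to 4762957 in LNA Malat1. Malat1 itself had 5051, 5197 and 4369 normalized counts under the control gapmer and 2833, 2792 and 2732 under LNA Malat1, which is 57.2% of the LNA Control mean (log2 fold change -0.80, SE 0.07, limma adjusted p = 7.5e-06). Over all genes, LNA Malat1 replicates 1 and 3 differed by no more than the sampling noise, but they differed by more over the genes with most reads. They were counted as 1 sample in means and SDs (n = 2), with all 6 libraries in the fits and in the values per kilobase. Of 12 cardiomyocyte markers 11 are in the table. Actc1, Tnnt2, Gata4 and Nkx2-5 were detected in every library, Myh6 and Myh7 had at most 7 normalized counts, and Nppa was not analysed here. Of 8 fibroblast markers 5 are in the table, and their sum was 5304 to 5911 in LNA Control and 4683 to 4817 in LNA Malat1.

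Changes were small in all 9 genes. At a limma adjusted p of at most 0.05, 2 fell in LNA Malat1, namely Txnrd1 to 83.8% and Gclm to 86.7% of the LNA Control mean, and 0 rose. Over all 15650 genes tested, 14.0% fell and 14.3% rose at that threshold, and among the 10490 genes that averaged 50 normalized counts or more, a range that holds all 9, 19.7% fell and 12.2% rose, so 2 falls in 9 genes (22.2%) is a share near that of all genes of such level. With a fold change of at least 1.5 as well, 0 of the 9 were called in either direction, where 8.00% of all genes were called higher and 2.92% lower. The 3 LNA Malat1 libraries did not overlap with the 3 LNA Control libraries in 4 genes. Nfe2l2 and Gclc were higher in LNA Malat1 (20.5% of all genes tested showed this) and Gclm and Txnrd1 were lower (20.8%). The median log2 fold change of the 9 genes was -0.04, against 0.02 over all genes tested and -0.03 over those with a mean of at least 50. The 95% confidence intervals of the 9 genes lay between a fold change of 0.771 and one of 1.2, all inside a 1.5-fold change in either direction.

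**Figure D1:**
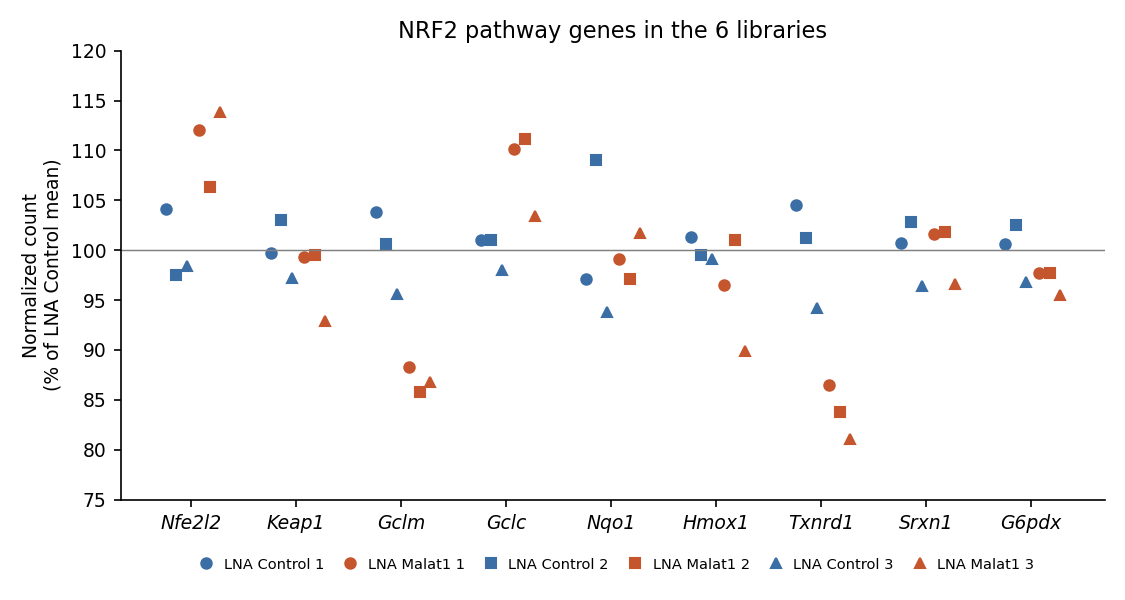
Normalized count of each of the 9 genes in every library, as a percentage of the gene's LNA Control mean (y axis, which starts at 75%), with LNA Control in blue, LNA Malat1 in orange, and circles, squares and triangles for replicates 1, 2 and 3. The LNA Malat1 points of Txnrd1 and Gclm lie below every LNA Control point, those of Nfe2l2 and Gclc lie above, and the groups overlap in the other 5 genes.

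Because NRF2 acts through promoter elements, the promoters that RefSeq gives for these genes (GRCm38.p6, the mm10 genome, from 250 bases before to 50 after the annotated start) were searched on both strands for the core TGACNNNGC of the antioxidant response element. Windows were found for 8 of the 10 genes. Gclc and Hmox1 have no entry. The core occurs in the windows of 5 of these 8 genes (5 of 10 windows, since Txnrd1 has 3 starts), in 12.4% of all 32851 windows and in 14% of the 15977 windows of genes in the table. The 4 matches upstream of a RefSeq start are shown with the core in capitals, 5′ to 3′ on the strand that carries it. They belong to the regulator, to both genes that fell and to the NADPH gene G6pdx.
Nfe2l2: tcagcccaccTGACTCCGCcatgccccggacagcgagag
Gclm: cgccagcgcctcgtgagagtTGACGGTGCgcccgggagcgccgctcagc
Txnrd1: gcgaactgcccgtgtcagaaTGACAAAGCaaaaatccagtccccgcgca
G6pdx: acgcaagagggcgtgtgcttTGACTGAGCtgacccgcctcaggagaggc
The Nfe2l2 stretch is chr2:75704875-75704913 on the minus strand, the strand of the gene, with the core 240 to 232 bases before the start. The Gclm stretch is chr3:122245403-122245451 on the minus strand, opposite to the gene, with the core 134 to 126 bases before the start. The Txnrd1 stretch is chr10:82859094-82859142 on the minus strand, opposite to the gene, 92 to 84 bases before 1 of its 3 starts. By the gene position given below, which begins at 82833951, this Txnrd1 stretch lies inside the gene. The window around that first start has no match. The G6pdx stretch is chrX:74428909-74428957 on the plus strand, opposite to the gene, 57 to 49 bases before the RefSeq start. The gene position given below for G6pdx reaches to 74429194, past this stretch, so by that annotation the stretch lies inside the gene. The fifth match, in Srxn1, lies 28 to 36 bases after the start. No match in the windows of Nqo1, Keap1 and Slc7a11 says only that these letters are not in those windows. None of the 5 matches overlaps with the related AP-1 motif TGANTCA, which is in 1 of the 10 windows and in 7.81% of all windows. A match is a description of the letters and not evidence of binding. The core stands in the windows of both genes that fell and of others whose groups overlapped.

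Among the regulators, Nfe2l2 (chr2:75675513-75704641, minus strand, mm10) had 472, 442 and 446 normalized counts under the control gapmer and 508, 482 and 516 under LNA Malat1. All LNA Malat1 libraries were above all LNA Control libraries, but the 2 nearest libraries of opposite groups differed by only 10 normalized counts. The means were 453 ± 16.3 (SD, n = 3) and 497 ± 21.2 (SD, n = 2), or 110% of LNA Control, and the log2 fold change of 0.15 (SE 0.05, 95% interval 0.03 to 0.27) did not pass the test (limma adjusted p = 0.063). It passed when the library totals were set equal (adjusted p = 0.024), under quantile normalization (adjusted p = 0.0098) and without LNA Control replicate 1 (adjusted p = 0.031), and not without any other single library. Keap1 (chr9:21229730-21239361, minus strand), which brings NRF2 to its ligase, had 481, 497 and 469 normalized counts under the control gapmer and 479, 480 and 448 under LNA Malat1. The groups overlapped, with a log2 fold change of -0.04 (95% interval -0.16 to 0.08, limma adjusted p = 0.62). Of the exon bases of Keap1, 10.9% are shared with Gm16754 on the opposite strand. Reads on more than 1 gene were left out, and whether counting used the strand is not given in the sources used here.

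GCLC and GCLM form glutamate-cysteine ligase, which catalyzes the limiting step of glutathione synthesis, with GCLC as the catalytic subunit and GCLM as the modifier that raises its activity. Of these subunit RNAs, Gclm passed the test and Gclc did not. Gclm (chr3:122245557-122270732, plus strand) had 777, 753 and 716 normalized counts under the control gapmer and 661, 642 and 650 under LNA Malat1. Every LNA Malat1 library was below the lowest LNA Control library, with a gap of 55 normalized counts between the groups against a range of 61 within LNA Control and 19 within LNA Malat1. The mean of 749 ± 30.7 (SD, n = 3) dropped to 649 ± 9.55 (SD, n = 2), and the log2 fold change was -0.20 (SE 0.05, 95% interval -0.31 to -0.09, limma adjusted p = 0.012). Without LNA Malat1 replicate 2 the adjusted p was 0.054 at a log2 fold change of -0.19, and without each of the other libraries it lay between 0.0043 and 0.049. Of the exon bases of Gclm, 4.71% are shared with Gm17494 on the opposite strand and 3.88% with Gm6061 on the same strand.

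Gclc (chr9:77754535-77794485, plus strand) had 466, 466 and 452 normalized counts under the control gapmer and 508, 513 and 477 under LNA Malat1. The LNA Malat1 libraries were again all above those of LNA Control, the closest by 11 normalized counts. At 109% of LNA Control, the log2 fold change of 0.11 (SE 0.05, 95% interval 0.00 to 0.23) did not pass the test (limma adjusted p = 0.13). It passed with library totals set equal (adjusted p = 0.046) and under quantile normalization (adjusted p = 0.021). The ratio of the 2 subunit RNAs within a library does not depend on how libraries are scaled. Gclm over Gclc was 1.67, 1.62 and 1.58 under the control gapmer and 1.3, 1.25 and 1.36 under LNA Malat1, without overlap. LNA Malat1 averaged 1.29 ± 0.0569 (SD, n = 2) against 1.62 ± 0.042 (SD, n = 3), or 79.6% of LNA Control.

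Txnrd1 and Srxn1 serve the thioredoxin arm, in which thioredoxin reductase passes electrons from NADPH to thioredoxin and sulfiredoxin repairs overoxidized peroxiredoxins. Txnrd1 (chr10:82833951-82897712, plus strand), the cytosolic reductase, had 1347, 1305 and 1214 normalized counts under the control gapmer and 1115, 1080 and 1045 under LNA Malat1. The highest LNA Malat1 library lay 99 normalized counts below the lowest LNA Control library. The mean of 1289 ± 68.0 (SD, n = 3) dropped to 1080, where the averaged replicates 1 and 3 had the same value as replicate 2, and the log2 fold change was -0.25 (SE 0.06, 95% interval -0.37 to -0.13, limma adjusted p = 0.0048). This was the largest change among the 9 genes, and it passed the test without any single library (adjusted p from 0.00074 to 0.038). Srxn1 (chr2:152105516-152111376, plus strand) had 484, 494 and 463 normalized counts under the control gapmer and 488, 489 and 464 under LNA Malat1. Its groups overlapped almost wholly, with a log2 fold change of 0.00 (95% interval -0.12 to 0.12, limma adjusted p = 1.0).

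Thioredoxin itself, Txn1, had 310, 306 and 283 normalized counts under the control gapmer and 287, 304 and 262 under LNA Malat1 and did not pass the test (log2 fold change -0.08, 95% interval -0.23 to 0.08, limma adjusted p = 0.44). Txnrd1 over Txn1 was 4.35, 4.26 and 4.29 under the control gapmer and 3.89, 3.55 and 3.99 under LNA Malat1, or 87.1% of LNA Control, without overlap. For the regulators, Nfe2l2 over Keap1 was 0.981, 0.889 and 0.951 under the control gapmer and 1.06, 1.00 and 1.15 under LNA Malat1, or 112%, also without overlap. These 3 ratios were chosen with the values of their genes known. An exact permutation test of 3 against 3 libraries (two-sided) gave p = 0.1 for each of the 3 ratios, which is the smallest p the design allows.

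**Figure D2:**
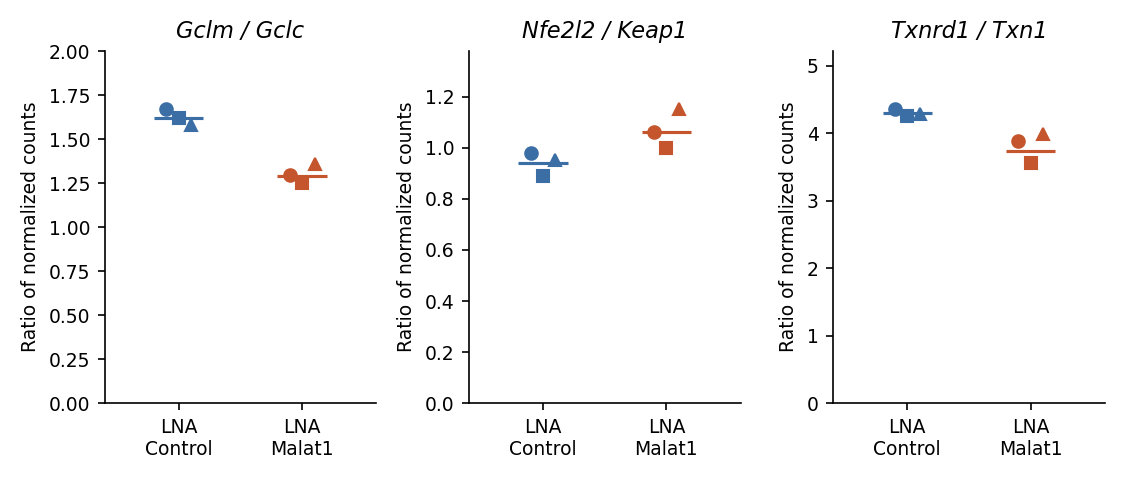
Ratio of normalized counts within each library (y axes, from 0) for Gclm over Gclc, Nfe2l2 over Keap1 and Txnrd1 over Txn1, with circles, squares and triangles for replicates 1, 2 and 3 and lines at the group means (LNA Malat1 replicates 1 and 3 counted as 1). LNA Malat1 was lower for Gclm over Gclc (1.25 to 1.36 against 1.58 to 1.67) and for Txnrd1 over Txn1 (3.55 to 3.99 against 4.26 to 4.35), and higher for Nfe2l2 over Keap1 (1.00 to 1.15 against 0.889 to 0.981).

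Nqo1 and Hmox1, which are widely used as reporters of NRF2 activity, overlapped between the groups. Nqo1 (chr8:107388225-107403206, minus strand), which reduces quinones with a pair of electrons, had 147, 165 and 142 normalized counts under the control gapmer and 150, 147 and 154 under LNA Malat1. With a log2 fold change of -0.01 (95% interval -0.19 to 0.17, limma adjusted p = 0.96), it was the least precisely measured of the 9 genes. Hmox1 (chr8:75093621-75100589, plus strand), the inducible heme oxygenase, had 275, 270 and 269 normalized counts under the control gapmer and 262, 274 and 244 under LNA Malat1. Its LNA Control libraries lay within 6 normalized counts of each other, and the log2 fold change was -0.06 (95% interval -0.20 to 0.08, limma adjusted p = 0.50).

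G6pdx (chrX:74409483-74429194, minus strand), the first enzyme of the pentose phosphate pathway and a main source of NADPH, had 707, 720 and 680 normalized counts under the control gapmer and 686, 686 and 671 under LNA Malat1. The groups overlapped, with a log2 fold change of -0.04 (95% interval -0.15 to 0.06, limma adjusted p = 0.54). Its exons share 13.6% of their bases with Ikbkg on the opposite strand, and it has a retrogene copy, G6pd2, so its count is uncertain to the extent that such reads were left out. These 5 genes without a passed test (Keap1, Srxn1, Nqo1, Hmox1 and G6pdx) are not shown to be equal between the groups, but a change of 1.5-fold lies outside each interval.

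**Figure D3:**
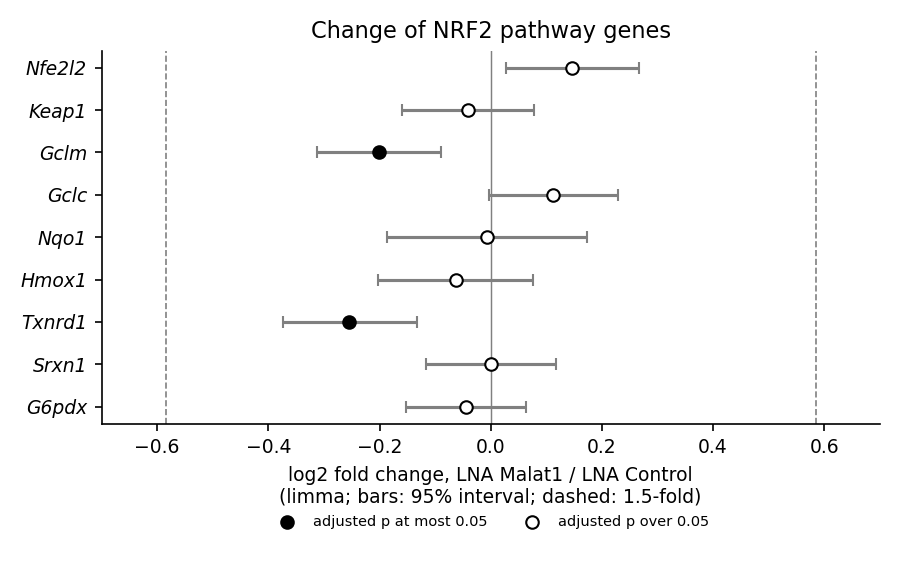
Log2 fold change of LNA Malat1 over LNA Control (x axis) for the 9 genes from limma, with bars for the 95% interval, filled points where the adjusted p was 0.05 or lower, and dashed lines at a 1.5-fold change. Txnrd1 (-0.25) and Gclm (-0.20) are the filled points, and every bar ends inside the dashed lines.

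The genes were measured with between 135 reads (Nqo1) and 1406 reads (Txnrd1) per library, as recovered from the rounding steps of the values. The SD over the 3 libraries of a group was 1.18% to 7.99% of the mean in LNA Control and 1.27% to 5.81% in LNA Malat1. Counting error alone, the mean over libraries of 1 over the square root of reads, is 2.88% (Txnrd1) to 8.06% (Nqo1). Most of these genes thus varied between libraries no more than counting allows, though an SD of 3 libraries is imprecise. Txnrd1 was the exception in both groups (5.28% and 3.24%), and Gclm varied slightly more than counting allows in LNA Control (4.1% against 3.74%). Over all genes, the LNA Control libraries differed by more than sampling noise. In these bulk samples, fewer cells with an RNA and less of that RNA per cell cannot be told apart.

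Set per kilobase of exon (all exons of GENCODE M21 merged), so that genes can be compared, the 9 LNA Control means lay between 97.4 and 228 normalized counts. In LNA Control, G6pdx was highest at 228 normalized counts per kilobase (221 to 234 over the 3 libraries), followed by Txnrd1 at 182 (171 to 190) and Srxn1 at 170 (164 to 175), whose ranges overlapped. Hmox1 stood between them and the rest at 155 (154 to 157). Gclc, Nfe2l2 and Gclm overlapped at 122, 119 and 119 per kilobase, as did Keap1 at 103 and Nqo1 at 97.4. In LNA Malat1 the order of the means, here over all 3 libraries, differed only for Txnrd1 and Srxn1. Txnrd1, at 152 (147 to 157), lay below Srxn1 at 170 (165 to 173) without overlap and overlapped with Hmox1 at 148 (139 to 156). Gclm kept its rank, but at 103 (102 to 105) it lay below Gclc at 133 (127 to 136) and Nfe2l2 at 132 (127 to 136) without overlap, and it overlapped with Keap1 at 99.9 (95.5 to 102). No test was made between genes, whose exon lengths depend on the transcripts annotated.

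**Figure D4:**
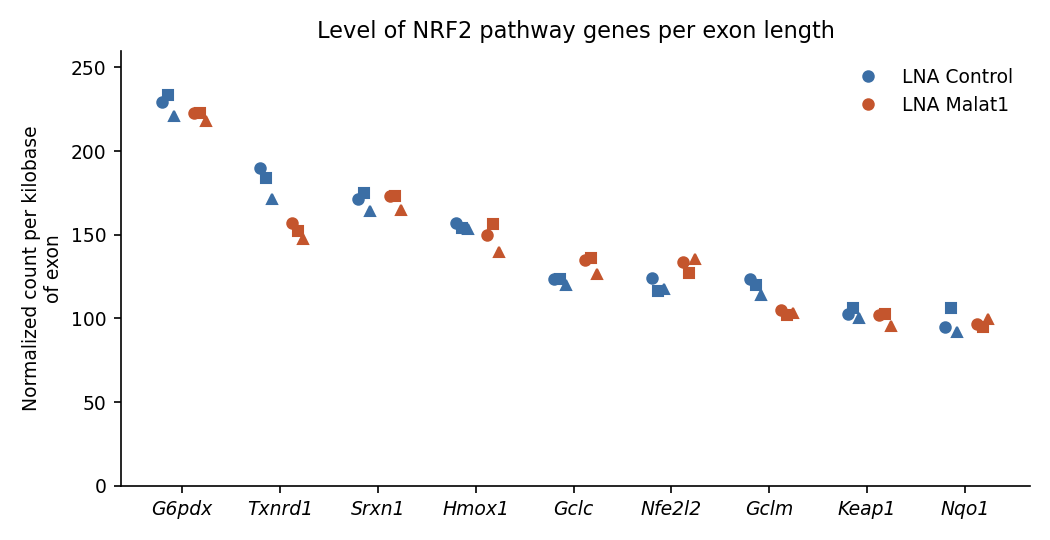
Normalized count per kilobase of exon (y axis, from 0) of the 9 genes in each library, ordered by the LNA Control mean, with LNA Control in blue, LNA Malat1 in orange, and circles, squares and triangles for replicates 1, 2 and 3. Txnrd1 and Srxn1 overlap in LNA Control (171 to 190 and 164 to 175) and not in LNA Malat1 (147 to 157 and 165 to 173).

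The proteins that work directly with these genes' products were examined next. NRF2 binds DNA with a small MAF protein, and 1 of the 3 small MAF genes passed the test. Mafk had 426, 501 and 424 normalized counts under the control gapmer and 616, 605 and 582 under LNA Malat1, a rise to 134% without overlap (log2 fold change 0.42, SE 0.07, limma adjusted p = 0.00063). Maff, at 84, 93 and 99 against 116, 113 and 105, did not overlap but did not pass the test (log2 fold change 0.27, limma adjusted p = 0.061), and Mafg overlapped (-0.04, adjusted p = 0.62). The difference between the MAF genes was not tested. The ligase subunits Cul3 (log2 fold change 0.02, limma adjusted p = 0.77) and Rbx1 (-0.05, adjusted p = 0.69) and the repressor Bach1 (-0.07, adjusted p = 0.38), which competes with NRF2 for the same sites, did not pass the test either.

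Of the partner enzymes, Slc3a2, the heavy chain of the cystine carrier (log2 fold change -0.05, limma adjusted p = 0.52), Gsr, glutathione reductase (-0.04, adjusted p = 0.63), Prdx1, a peroxiredoxin that thioredoxin reduces (-0.09, adjusted p = 0.27), and Pgd, which follows G6PDX in the pentose phosphate pathway (0.05, adjusted p = 0.57), did not pass the test. Hmox2, the constitutive heme oxygenase, had 304, 300 and 276 normalized counts under the control gapmer and 257, 255 and 244 under LNA Malat1. It fell to 86.2% without overlap (log2 fold change -0.22, limma adjusted p = 0.023). The Hmox2 call was lost without LNA Control replicate 1 or 2 or any LNA Malat1 library (adjusted p up to 0.09), and under quantile normalization. The difference between Hmox2 and Hmox1 was not tested.

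In 8 wider lists of the antioxidant and related pathways, 110 of 117 genes are in the table and 106 were tested. Of these, 6 rose and 26 fell at the same adjusted p (5.66% and 24.5%, beside 14.3% and 14.0% of all genes tested). Among the 95 of them that averaged 50 normalized counts or more, 5 rose and 26 fell (5.26% and 27.4%, beside 12.2% and 19.7% of all genes of that level). With a 1.5-fold change 1 was called higher and 2 lower of the 106, where 8.00% and 2.92% of all genes were. When only genes with a mean of at least 50 were fitted, 2 listed genes were called, beside 317 higher and 349 lower of 10490. Of the genes named from these lists, those whose call depended on a single library are given with the libraries without which it was lost. The fit with LNA Malat1 replicates 1 and 3 as 1 sample also lost named calls (limma adjusted p 0.057 to 0.15). These were Dpp3, Gsk3b, Gstm2, Txn2, Txnip, Taldo1, Ireb2, Hmox2, Cth and Ddit3. In that fit Gclm and Txnrd1 kept their calls (limma adjusted p = 0.041 and 0.025). The median log2 fold change of the 106 genes was -0.10, against 0.02 over all genes tested and -0.03 at a mean of at least 50. The genes called with a 1.5-fold change were Gstt2, a glutathione transferase at a low level, Pgls, the lactonase that acts on the product of G6PDX, and Aldh3a2, the fatty aldehyde dehydrogenase. Gstt2 had 20, 15 and 19 normalized counts under the control gapmer and 34, 33 and 39 under LNA Malat1 (193% of the LNA Control mean, log2 fold change 0.94, SE 0.21, limma adjusted p = 0.0047). Pgls had 169, 150 and 159 against 90, 98 and 99, a fall to 60.4% (log2 fold change -0.73, SE 0.09, limma adjusted p = 8.2e-05). Aldh3a2 had 738, 730 and 689 against 415, 414 and 388, a fall to 56.7% (log2 fold change -0.82, SE 0.06, limma adjusted p = 6.6e-07). The groups did not overlap in any of these 3 genes.

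Each list's count, over its genes with a mean of at least 5, stands beside 14.3% risen and 14.0% fallen of all genes tested. Of all genes with a mean of at least 50, 12.2% rose and 19.7% fell. Around the NRF2 regulators, 2 of 13 genes tested rose and 2 fell. Besides Mafk, Sesn2, a stress-induced sestrin that aids the removal of KEAP1, rose to 121% (316, 303 and 293 against 375, 362 and 374 normalized counts, limma adjusted p = 0.0028). Dpp3, a peptidase that binds KEAP1, fell to 85.9% (adjusted p = 0.013) and Gsk3b, a kinase that marks NRF2 for another ligase, fell to 89.0% (adjusted p = 0.049). The Dpp3 call was lost without LNA Control replicate 2 or LNA Malat1 replicate 1 or 3 (adjusted p up to 0.065). The Gsk3b call was lost in 10 of 16 alternatives, among them 5 of the 6 fits without a library, all but that without LNA Control replicate 3 (adjusted p up to 0.18). Of 22 glutathione genes tested, 2 rose and 6 fell. Gss, glutathione synthetase, which acts after GCLC and GCLM, rose to 124% (227, 223 and 208 against 280, 281 and 245 normalized counts, limma adjusted p = 0.011). Abcc4 and Abcc1, which export conjugates, fell to 69.9% and 82.0% (adjusted p = 3.5e-05 and 0.0016), and Gstm2, a glutathione transferase, fell to 83.3% (adjusted p = 0.019). The Gss call was lost without LNA Malat1 replicate 1 or 2 (adjusted p up to 0.063), and that of Gstm2 without LNA Control replicate 2 or LNA Malat1 replicate 1 or 3 (adjusted p up to 0.09).

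Of 15 thioredoxin and peroxiredoxin genes, 1 rose and 4 fell. Sesn3 rose to 126% and Sesn1 fell to 75.3%, both sestrins (limma adjusted p = 0.00048 and 0.00043), and the mitochondrial thioredoxin Txn2 and the thioredoxin inhibitor Txnip fell to 87.2% and 89.6% (adjusted p = 0.014 and 0.046). The Txn2 call was lost without LNA Malat1 replicate 1 or 3 and under quantile normalization (adjusted p up to 0.071 without a library). The Txnip call was lost in 10 of 16 alternatives, among them every fit without a library except LNA Control replicate 3 (adjusted p up to 0.18). Of 11 genes of NADPH supply 0 rose and 3 fell, with Idh1 at 86.1% and Taldo1 at 88.2% (limma adjusted p = 0.011 and 0.044) beside Pgls. The Idh1 call was lost without LNA Control replicate 2 or LNA Malat1 replicate 1 (adjusted p up to 0.055) and under quantile normalization. Taldo1, like Txnip, lost its call in 10 of 16 alternatives and without each library except LNA Control replicate 3 (adjusted p up to 0.15). Of 15 quinone, aldehyde and xenobiotic enzymes 0 rose and 3 fell, with Cbr1, a carbonyl reductase, at 81.1% and the quinone reductase Nqo2 at 85.7% (limma adjusted p = 0.0047 and 0.0094) beside Aldh3a2. The Nqo2 call was lost without LNA Malat1 replicate 1 (adjusted p = 0.058), and its difference from Nqo1 was not tested.

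Of 12 genes of heme and iron handling, Ireb2, an iron sensor, rose to 113% (limma adjusted p = 0.031), a call lost with median-of-ratios scaling and without LNA Control replicate 1 or any LNA Malat1 library (adjusted p up to 0.12). The iron exporter Slc40a1 fell to 69.2% and the iron importer Slc11a2 to 81.5% (adjusted p = 0.0015 and 0.015), beside Hmox2. The Slc11a2 call was lost without LNA Malat1 replicate 1 (adjusted p = 0.081). Of 4 superoxide dismutase and catalase genes, 1 fell, Ccs, the copper chaperone of SOD1 (69.6%, limma adjusted p = 0.0042). Of 14 genes of the ATF4 amino acid response, which shares the cystine carrier with NRF2, 0 rose and 4 fell, among them Trib3 at 75.1%, Cth, which makes cysteine, at 77.3%, and Ddit3 at 86.3% (limma adjusted p = 0.00027, 0.024 and 0.047). The Cth call was lost without LNA Control replicate 2, where the log2 fold change was -0.22 in place of -0.36, and without each LNA Malat1 library (adjusted p up to 0.087). The Ddit3 call was lost in 10 of 16 alternatives, among them each fit without a library except LNA Control replicate 3 (adjusted p up to 0.18). The median log2 fold change was negative in each of the 8 lists, from -0.13 to -0.05. These medians stand beside 0.02 over all genes tested and -0.03 over those with a mean of at least 50.

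**Figure D5:**
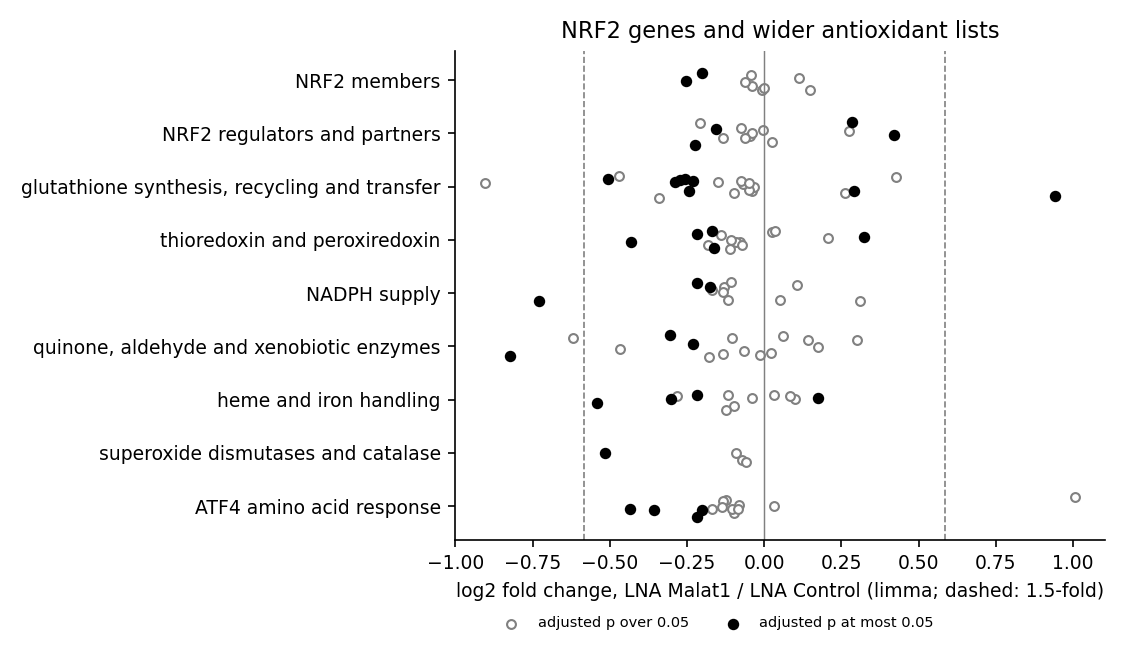
Log2 fold change of LNA Malat1 over LNA Control (x axis) for each gene tested, by list, with filled points at a limma adjusted p of at most 0.05 and dashed lines at a 1.5-fold change. The NRF2 genes lie between -0.25 and 0.15, and the filled points beyond the dashed lines are Gstt2 (0.94), Pgls (-0.73) and Aldh3a2 (-0.82).

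Markers of other cell types moved with the groups in part. Over all genes tested, 14.3% rose and 14.0% fell at a limma adjusted p of at most 0.05. Of 4 fibroblast markers tested, 1 fell (Col3a1, 2549, 2650 and 2376 against 2060, 2023 and 1952 normalized counts, limma adjusted p = 0.0014), and Col1a2 was at 0 or 1 in every library. Both macrophage markers tested, of 7 listed, rose from low levels, Cd68 from 23, 14 and 22 to 38, 33 and 31 and Csf1r from 13, 22 and 10 to 43, 39 and 23 normalized counts (limma adjusted p = 0.023 and 0.013). Their sum was 32 to 36 in LNA Control and 54 to 81 in LNA Malat1. Of 7 endothelial markers 3 are in the table, with a sum of 22 to 31 in LNA Control and 36 to 37 in LNA Malat1. Of the 2 tested, 0 passed the test, and the groups overlapped in both (Pecam1 limma adjusted p = 0.1, Tek 0.65). Of 9 cardiomyocyte markers tested, 1 rose and 2 fell, and the list summed to 4099 to 4187 in LNA Control and 3989 to 4017 in LNA Malat1. These bulk libraries do not tell whether HL-1 cells or other cells expressed these markers. Their relation to the changes of Gclm, Txnrd1 and the wider lists was not tested.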

How the data were processed

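RNA of HL-1 cells was sequenced as 3 LNA Control and 3 LNA Malat1 libraries, grouped by the labels. The authors trimmed reads with Trimmomatic 0.39, aligned them to mm10 with STAR 2.7.7a, counted reads on exons per gene with featureCounts 1.6.5 without reads on several genes or regions, and used DESeq2 1.30.0. The kit is stranded. Deposited values have the unit score here: the authors normalized each count by a factor per library and rounded it, so tests for raw counts were not used. Factors recovered from rounding gaps gave 4511652 to 5594548 reads on genes per library, with precision limited by counting. Genes with a mean of at least 5 normalized counts (15650 of 21269) were tested with limma 3.58.1 (lmFit, eBayes with trend, two-sided) in R 4.3.3, after taking log2(normalized count + 1), with Benjamini-Hochberg adjustment over all genes. A fold change on this scale understates that of low genes. The test was checked on simulated data with changes larger than 1.5-fold only. That check does not cover changes as small as those of the NRF2 genes. Ratios were tested by exact permutation (scipy 1.17.1).

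The NRF2 genes, the wider lists and the ratios were chosen with earlier results of these data known. Named genes were Malat1, the NRF2 genes, direct partners, and in each list up to 3 genes with the largest rise and 3 with the largest fall at an adjusted p of at most 0.05. Markers were named after their values were seen. LNA Malat1 replicates 1 and 3 were closest (chi-square 0.949 per gene over 14522 genes, p = 1, where sampling noise alone gives about 1, against 1.768 to 4.179 between LNA Control libraries). Over their 1754 genes with at least 1600 reads the value was 1.095, above sampling noise, and replicates 1 and 2 gave 1.012 over all genes, so the criterion does not single out this pair. Counting intervals do not cover the independence of molecules. Gene positions are those of the table, and exon lengths those of GENCODE M21. Alternatives were a block for the replicate number, a pseudocount of 0.1 or 5, other scalings, other filters and fold change thresholds, replicates 1 and 3 of LNA Malat1 as 1 sample, and each library left out.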

Additional observations from a re-analysis of the deposited data

How the results depend on the processing

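Gclm passed the test in 14 of 16 alternatives and Txnrd1 in 15 of 16, the exceptions being a test against a 1.5-fold change for both and the fit without LNA Malat1 replicate 2 for Gclm. Of the 9 NRF2 genes, 2 rather than 0 were higher at the adjusted p with quantile normalization or library totals set equal (Nfe2l2 and Gclc), and from 0 to 1 with each library left out, while the number lower was 1 to 2 and, with no fold change minimum, 2 were called lower. Quantile normalization also moved the split of called genes from 1252 higher and 457 lower to 753 and 694. In the wider lists, where 3 genes were called, the number was 5 with quantile normalization, 32 with no fold change minimum, 0 with a fold change of at least 2, 1 in the test against a 1.5-fold change (Aldh3a2), and 3 to 5 with each library left out. Of 431 refits of the 27 named wider genes past the test, 330 kept the call, the others lost it, and 0 changed sign, with Gsk3b, Txnip, Taldo1 and Ddit3 losing it most often (10 of 16 alternatives each, under quantile normalization, with library totals set equal and with no filter among them). Of 144 refits of the 9 NRF2 genes, 126 kept direction and call and 10 changed sign, all in genes near 0. Under quantile normalization Keap1 stood at 0.028, Nqo1 at 0.026, G6pdx at 0.019, Rbx1 at 0.005, Mafg at 0.020, Slc3a2 at 0.007 and Gsr at 0.020 on the log2 scale. Nqo1 stood at 0.030 with library totals set equal, and Srxn1 at -0.018 with median-of-ratios scaling. With each library left out, Srxn1 ranged from -0.026 to 0.025, Nqo1 from -0.051 to 0.057, Cul3 from -0.005 to 0.053 and Rbx1 from -0.099 to 0.038. The causes were not tested. With the replicate number as a block, 2 NRF2 genes fell as before (Gclm -0.201, Txnrd1 -0.254) and no call among the named genes changed. Same-numbered libraries correlated by 0.086, 0.182 and 0.083 in their deviations over 10490 genes, each higher than with another number. These correlations are low but do not exclude pairing by number. The main fit did not use the numbers as pairs. Depth left counting errors of 2.88% to 8.06% of the mean for the 9 genes.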
